A study of Mus musculus with 6 samples.

Results

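The 8 genes described here encode the core of TGF-beta signalling in CD8+ T cells, namely the receptor chains (Tgfbr1, Tgfbr2), the receptor-activated SMADs (Smad2, Smad3), the inhibitory SMAD (Smad7), the SMAD co-repressors (Ski, Skil) and the target gene Itgae. They were chosen by name, and all 8 were found by symbol among the 28773 gene IDs of the files. RNA-seq had been performed on day 35 with splenic CD8+ T cells of mice, in 3 MWA+PBS samples (replicates 1 to 3) and 3 MWA+2DG samples (replicates 4 to 6). Mice of both groups had undergone microwave ablation (MWA) of their tumor, after which they received either the vehicle PBS or 2-deoxy-D-glucose (2DG), a glucose analogue that blocks glycolysis. There was no group without ablation in the samples. The labels gave no strain, sex, age or tumor line. Per the study's methods, all its mice were female, several tumor models in BALB/c and C57BL/6 mice were used, CD8+ T cells were taken from spleen cells with an isolation kit, and the injections had ended before day 35.

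TGF-beta binds the type II receptor chain TGFBR2, which recruits and phosphorylates the type I chain TGFBR1. TGFBR1 in turn phosphorylates SMAD2 and SMAD3, which bind SMAD4, enter the nucleus and act on target genes together with other factors. SMAD7 blocks the receptor and is itself a target of the pathway, and SKI and SKIL (SnoN) hold SMAD target genes in a repressed state. In T cells the pathway restrains activation and favours tissue residence, and Itgae, which encodes the integrin chain CD103, is one of its best known targets there. CD103 pairs with the beta7 chain, encoded by Itgb7, and binds E-cadherin on epithelial cells.

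Relative to the library total, Skil was higher and Smad7 lower in MWA+2DG, and the receptor chains, Smad2, Smad3, Ski and Itgae did not pass the test. Values are FPKM (fragments mapped to a transcript, scaled to its length and to the library total), an expression level that can be compared between genes. Differences are log2 fold changes of FPKM + 1, MWA+2DG minus MWA+PBS, from limma with Benjamini-Hochberg adjustment over the 12444 genes with a mean FPKM of at least 1. At an adjusted p under 0.05, 1 of the 8 genes was higher and 1 lower, and all 8 were tested. Among all genes tested, 39.4% passed, 22.3% higher and 17.1% lower, and the share among the 8 genes was 25%. The 8 genes had a median log2 fold change of 0.05, and all genes tested had one of 0.05. Skil and Smad7 also passed the study's own rule, which asks for P below 0.05 and a change of more than 0.25 in either direction and was read here as an unadjusted P, beside 38.2% of all genes tested. In 3 of the 8 genes the groups did not overlap, with MWA+2DG above in 2 and below in 1. Groups without overlap were found in 52.1% of all genes tested, 30.2% above and 21.9% below.

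**Figure D1:**
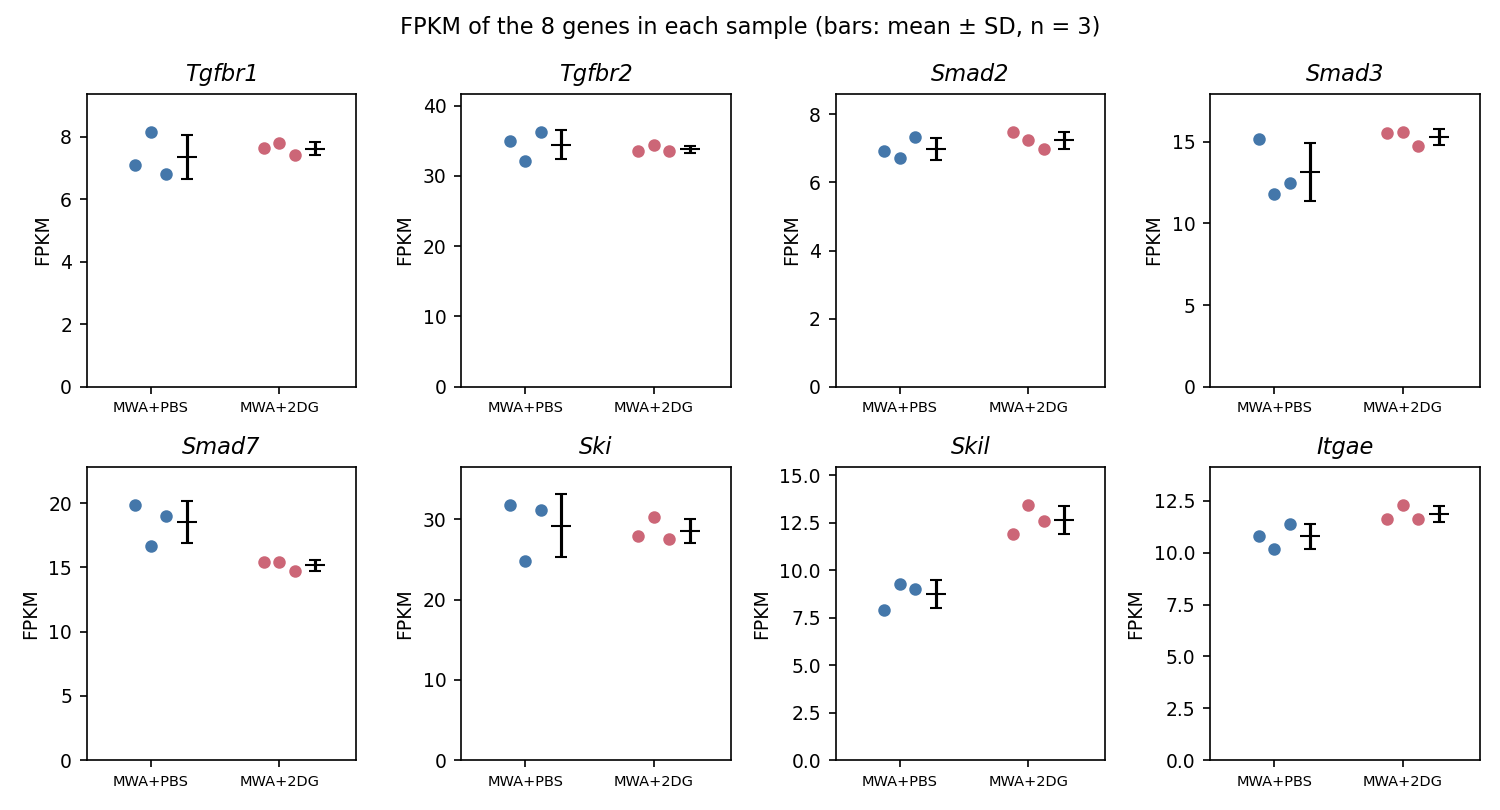
FPKM of the 8 genes (y axes, each from 0) in the 3 MWA+PBS and 3 MWA+2DG samples, with 1 point per sample and black bars for mean ± SD (n = 3). The groups are apart for Smad7 (lower in MWA+2DG), Skil and Itgae (above in MWA+2DG) and overlap for the other 5 genes.

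The markers of the isolated cells were present and the samples held other cells too. The T lineage list, with Cd8a, Cd8b1 and Cd3e among its 16 genes, summed to between 1744 and 1828 FPKM in MWA+PBS and between 2420 and 2580 FPKM in MWA+2DG, and 15 of its 16 genes were higher in MWA+2DG. All 15 macrophage markers were lower, with a sum of 964.3 to 1045 FPKM in MWA+PBS and 141.8 to 151 FPKM in MWA+2DG. All 9 neutrophil markers were higher (55.59 to 81.23 FPKM against 1526 to 1700 FPKM), and so were 7 of 8 B cell markers tested (9.28 to 10.35 FPKM against 47.42 to 52.7 FPKM). Macrophages, neutrophils and B cells express TGF-beta receptors and SMADs as well, and the part of these cells in the results that follow was not tested. In bulk samples, fewer cells of a type and less RNA per cell cannot be told apart. FPKM is relative to the library total, so the values were also read after scaling to the T lineage list. This subtracted 0.44 from the log2 fold change of all genes and took the median over all genes tested to -0.39. With it 452 of 12444 genes passed as higher and 8736 as lower, and values relative to T lineage genes are to be read beside these. The labels named no batch, and any batch that coincided with the groups and the effect of 2DG cannot be told apart.

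The receptor chains were examined first. Tgfbr2 (ENSMUSG00000032440), which encodes the ligand-binding chain, had the highest level of the 8 genes. It was 34.93, 32.19 and 36.29 FPKM in MWA+PBS and 33.49, 34.35 and 33.57 FPKM in MWA+2DG. The MWA+2DG values lay within the range of the MWA+PBS values. The log2 fold change was -0.03 ± 0.06 (SE, limma adjusted p = 0.754), with a 95% interval from -0.16 to 0.11. Tgfbr1 (ENSMUSG00000007613), which encodes the kinase chain that acts on the SMADs, was 7.1, 8.16 and 6.8 FPKM in MWA+PBS and 7.65, 7.8 and 7.41 FPKM in MWA+2DG. Its groups also overlapped. Its log2 fold change was 0.05 ± 0.07 (SE, limma adjusted p = 0.639), with a 95% interval from -0.13 to 0.22. Relative to T lineage genes, both chains were lower in MWA+2DG, at -0.47 for Tgfbr2 (limma adjusted p = 0.000582) and -0.39 for Tgfbr1 (limma adjusted p = 0.00253). The median over all genes tested was -0.39 with that reference, and 8736 of 12444 genes passed as lower.

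The balance of the chains was read as a ratio within each sample. Ratios are of FPKM + 1, so the added 1 weighs on low values, and with 0.1 added instead the 6 ratios kept their direction. The log2 ratio of Tgfbr2 over Tgfbr1 averaged 2.09 ± 0.21 in MWA+PBS and 2.01 ± 0.02 in MWA+2DG (SD, n = 3, two-sided exact permutation p = 0.6). In each sample Tgfbr2 transcripts were several-fold more abundant than Tgfbr1 transcripts. In all, 6 such ratios were tested, and with 3 samples against 3 the smallest p that this test allows is 0.1.

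Promoter sequence was held for 4 of the 8 genes (Tgfbr1, Tgfbr2, Smad3 and Ski), from RefSeq on build GRCm38.p6. Per the submitters' processing notes the reads were handled with mm9, so these coordinates do not belong to the files. The 250 bases before the annotated start of both receptor genes and of Smad3 are shown, since the chains differed in level and Smad3 had the largest change among these 4 genes. They are chr4:47352972-47353221 (plus strand) for the first of 2 Tgfbr1 entries, chr9:116175364-116175613 (minus strand) for Tgfbr2 and chr9:63757995-63758244 (minus strand) for Smad3. Capitals mark the SMAD box CAGAC and the GC box GGGCGG on either strand.
Tgfbr1: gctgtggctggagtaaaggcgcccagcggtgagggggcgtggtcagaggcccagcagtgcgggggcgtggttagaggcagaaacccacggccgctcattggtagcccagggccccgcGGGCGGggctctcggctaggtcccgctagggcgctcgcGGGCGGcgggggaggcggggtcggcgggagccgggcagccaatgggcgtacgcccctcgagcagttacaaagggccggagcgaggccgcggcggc
Tgfbr2: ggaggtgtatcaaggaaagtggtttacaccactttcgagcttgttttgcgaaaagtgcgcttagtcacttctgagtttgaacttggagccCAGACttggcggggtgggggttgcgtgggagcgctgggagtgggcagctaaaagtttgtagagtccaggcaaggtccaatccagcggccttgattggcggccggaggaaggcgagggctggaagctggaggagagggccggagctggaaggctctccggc
Smad3: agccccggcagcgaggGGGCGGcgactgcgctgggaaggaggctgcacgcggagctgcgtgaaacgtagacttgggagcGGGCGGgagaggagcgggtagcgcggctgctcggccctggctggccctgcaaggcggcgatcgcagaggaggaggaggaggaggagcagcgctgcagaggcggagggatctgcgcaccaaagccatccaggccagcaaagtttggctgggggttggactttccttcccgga
The Tgfbr2 window held 1 SMAD box, which began 160 bases before the start, and no GC box. The printed Tgfbr1 window and the Smad3 window held 2 GC boxes each and no SMAD box. The second Tgfbr1 entry, which is not printed, held 1 SMAD box, 203 bases before its start, and no GC box. The Ski window held 5 GC boxes. Of 32851 promoters of the same length, 42.2% held at least 1 SMAD box and 32.7% at least 1 GC box. Holding 1 of either was thus common, and how often promoters held several was not counted. The AP-1 site TGANTCA, found in 6.75% of promoters, and the palindrome GTCTAGAC, found in 0.167%, were in none of the 4 windows or in the second Tgfbr1 entry. GC content was 74.8% for the first and 52.8% for the second Tgfbr1 entry, 58.4% for Tgfbr2, 69.2% for Smad3 and 87.6% for Ski, against a median of 52.4% over all promoters.

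Of the receptor-activated SMADs, Smad2 (ENSMUSG00000024563) was the lowest of the 8 genes in both groups. It was 6.92, 6.71 and 7.33 FPKM in MWA+PBS and 7.49, 7.25 and 6.99 FPKM in MWA+2DG. The groups overlapped, and the log2 fold change was 0.05 ± 0.06 (SE, limma adjusted p = 0.585), with a 95% interval from -0.1 to 0.19. Smad3 (ENSMUSG00000032402), the other receptor-activated SMAD, was 15.15, 11.81 and 12.48 FPKM in MWA+PBS and 15.51, 15.61 and 14.75 FPKM in MWA+2DG. MWA+PBS replicate 1 lay among the MWA+2DG values, and the other MWA+PBS samples lay below them. Its log2 fold change was 0.21 ± 0.09 (SE), with a 95% interval from 0 to 0.42, and it did not pass (limma adjusted p = 0.103). Without MWA+PBS replicate 1 it was 0.31 and passed (limma adjusted p = 0.0165), so that 1 library decided the call. With arrayWeights, which gives the samples unequal weights, it was 0.09 and did not pass (limma adjusted p = 0.408). Both genes turned when set against T lineage genes and passed as lower, at -0.39 for Smad2 (limma adjusted p = 0.00157) and -0.23 for Smad3 (limma adjusted p = 0.0415). The log2 ratio of Smad3 over Smad2 averaged 0.82 ± 0.18 in MWA+PBS and 0.98 ± 0.03 in MWA+2DG (SD, n = 3, exact permutation p = 0.4). Its difference between the groups was 0.16, and leaving out each sample gave 0.1 to 0.27.

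Smad7 (ENSMUSG00000025880), the inhibitory SMAD that blocks the receptor, was lower in MWA+2DG. It was 19.84, 16.69 and 19.02 FPKM in MWA+PBS and 15.39, 15.41 and 14.69 FPKM in MWA+2DG. Every MWA+2DG sample lay below every MWA+PBS sample. The log2 fold change was -0.27 ± 0.07 (SE, limma adjusted p = 0.0212), with a 95% interval from -0.44 to -0.1. The call was lost when 1 of 4 libraries was left out, with limma adjusted p of 0.0768 without MWA+PBS replicate 1, 0.0623 without MWA+PBS replicate 3, 0.0545 without MWA+2DG replicate 4 and 0.0735 without MWA+2DG replicate 6. Relative to T lineage genes it was -0.71 (limma adjusted p = 0.000126).

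Smad7 lay above Smad3 in MWA+PBS and was level with it in MWA+2DG. The log2 ratio of Smad7 over Smad3 was 0.37, 0.47 and 0.57 in MWA+PBS and -0.01, -0.02 and -0.01 in MWA+2DG. Smad7 transcripts thus exceeded Smad3 transcripts in every MWA+PBS sample, and the levels of the pair were near equal in every MWA+2DG sample. The difference of the group means was -0.48, with an exact permutation p of 0.1 (0.15 adjusted over the 6 ratios), so it could not reach 0.05. Leaving out each sample gave -0.53 to -0.43.

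The co-repressors, which are related proteins, differed in their change. Skil (ENSMUSG00000027660) encodes SnoN, a co-repressor whose own gene is induced by TGF-beta. It was 7.92, 9.29 and 9.03 FPKM in MWA+PBS and 11.91, 13.41 and 12.6 FPKM in MWA+2DG. Every MWA+2DG sample lay above every MWA+PBS sample. The log2 fold change was 0.49 ± 0.08 (SE, limma adjusted p = 0.00207), with a 95% interval from 0.31 to 0.66, the largest change of the 8 genes. In size it was above that of 81% of all genes tested. The call was kept without any 1 of the samples (0.42 to 0.53, limma adjusted p = 0.00315 to 0.00966). Relative to T lineage genes it was 0.05 and did not pass (limma adjusted p = 0.665).

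Ski (ENSMUSG00000029050), the other co-repressor, was 31.74, 24.74 and 31.14 FPKM in MWA+PBS and 27.86, 30.28 and 27.58 FPKM in MWA+2DG. MWA+PBS replicate 2 was the lowest of all samples, and the groups overlapped. The log2 fold change was -0.02 ± 0.1 (SE, limma adjusted p = 0.872), with a 95% interval from -0.25 to 0.21. Its sign changed when 1 of several samples was left out, with values between -0.13 and 0.04. Set against T lineage genes, Ski was -0.46 and passed as lower (limma adjusted p = 0.00474). The log2 ratio of Skil over Ski was -1.88, -1.32 and -1.68 in MWA+PBS and -1.16, -1.12 and -1.07 in MWA+2DG, without overlap. The difference of the means was 0.51 (exact permutation p = 0.1, 0.15 adjusted over the 6 ratios). Ski remained the more abundant of the pair in all 6 samples.

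**Figure D2:**
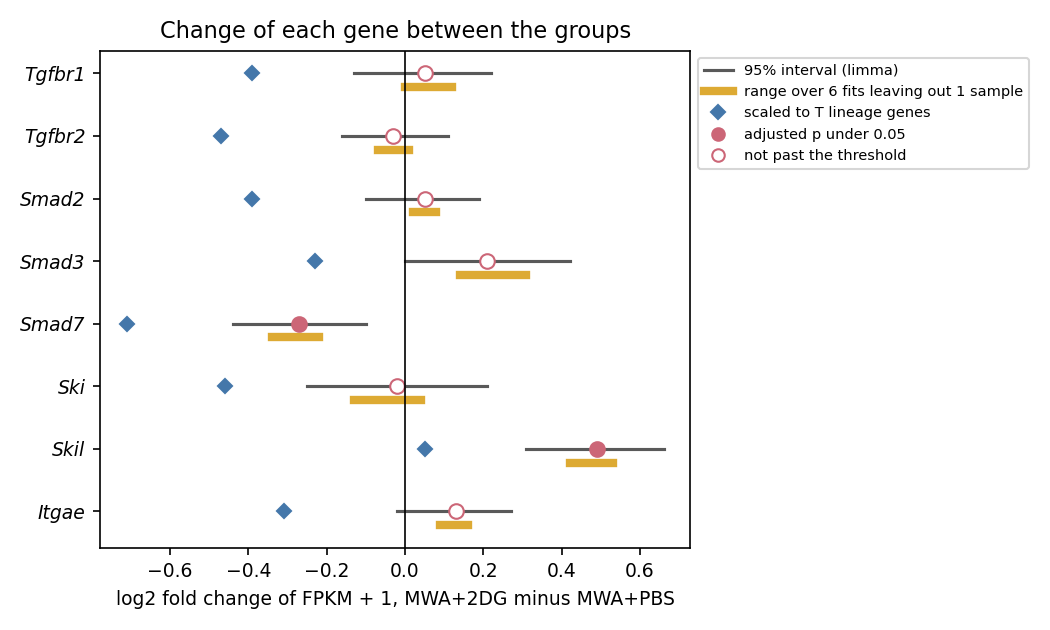
Log2 fold change of FPKM + 1 (x axis) for each of the 8 genes (y axis). Circles are the limma estimates with their 95% intervals (filled at an adjusted p under 0.05), thick bars the range over 6 fits that each leave out 1 sample, and diamonds the values after scaling to T lineage genes, which lie 0.44 lower for every gene. Only Skil and Smad7 have filled circles, and Skil is the only gene whose diamond stays above 0.

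Itgae (ENSMUSG00000005947) was 10.79, 10.19 and 11.37 FPKM in MWA+PBS and 11.61, 12.29 and 11.65 FPKM in MWA+2DG. The MWA+2DG samples lay just above the MWA+PBS samples. The log2 fold change was 0.13 ± 0.06 (SE), with a 95% interval from -0.02 to 0.27, and did not pass (limma adjusted p = 0.14). It did not pass without any 1 of the samples either, with log2 fold changes between 0.09 and 0.16. Its level was next set against the genes of its partner chain and of the CD8 co-receptor. Itgb7 was 153.48, 136.1 and 145.98 FPKM in MWA+PBS and 181.16, 174.67 and 172.78 FPKM in MWA+2DG (log2 fold change 0.28, limma adjusted p = 0.00892), but it was -0.16 and passed as lower relative to T lineage genes (limma adjusted p = 0.0392). Relative to the library total, Cd8a rose by 0.66, beside a mean of 0.44 over the T lineage list. The log2 ratio of Itgae over Itgb7 averaged -3.63 ± 0.07 in MWA+PBS and -3.79 ± 0.06 in MWA+2DG, and that of Itgae over Cd8a was -4.3 ± 0.11 and -4.84 ± 0.07 (SD, n = 3). For each the groups did not overlap (exact permutation p = 0.1, 0.15 adjusted over the 6 ratios), and the differences were -0.15 and -0.53. Itgae was lower in MWA+2DG relative to T lineage genes, at -0.31 (limma adjusted p = 0.00601). With that reference the median over all genes tested was -0.39, and 8736 of 12444 genes passed as lower, so the fall was not particular to Itgae.

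Itgae is also expressed by regulatory T cells and by cross-presenting dendritic cells, so their markers were read beside it. Foxp3, which defines regulatory T cells, was between 0.41 and 0.77 FPKM over the 6 samples and was too low to be tested. Of the 6 regulatory T cell markers tested of 9, Tnfrsf18 was higher (0.77) and Cd4 lower (-0.5), and the summed list was 17.88 to 22.18 FPKM in MWA+PBS and 23.87 to 24.66 FPKM in MWA+2DG. The dendritic cell markers Xcr1 and Clec9a were at most 0.57 and 0.66 FPKM in any sample. Of the 7 markers of that list tested of 11, 6 were lower in MWA+2DG, and its sum was 54.61 to 56.81 FPKM in MWA+PBS and 30.72 to 32.82 FPKM in MWA+2DG. Other genes of these lists, which other cells express too, were at levels like that of Itgae, with Tnfrsf18 at 13.27 FPKM in MWA+2DG and Irf8 at 12.08 FPKM in MWA+PBS. The part of these cells in the level of Itgae was not tested.

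**Figure D3:**
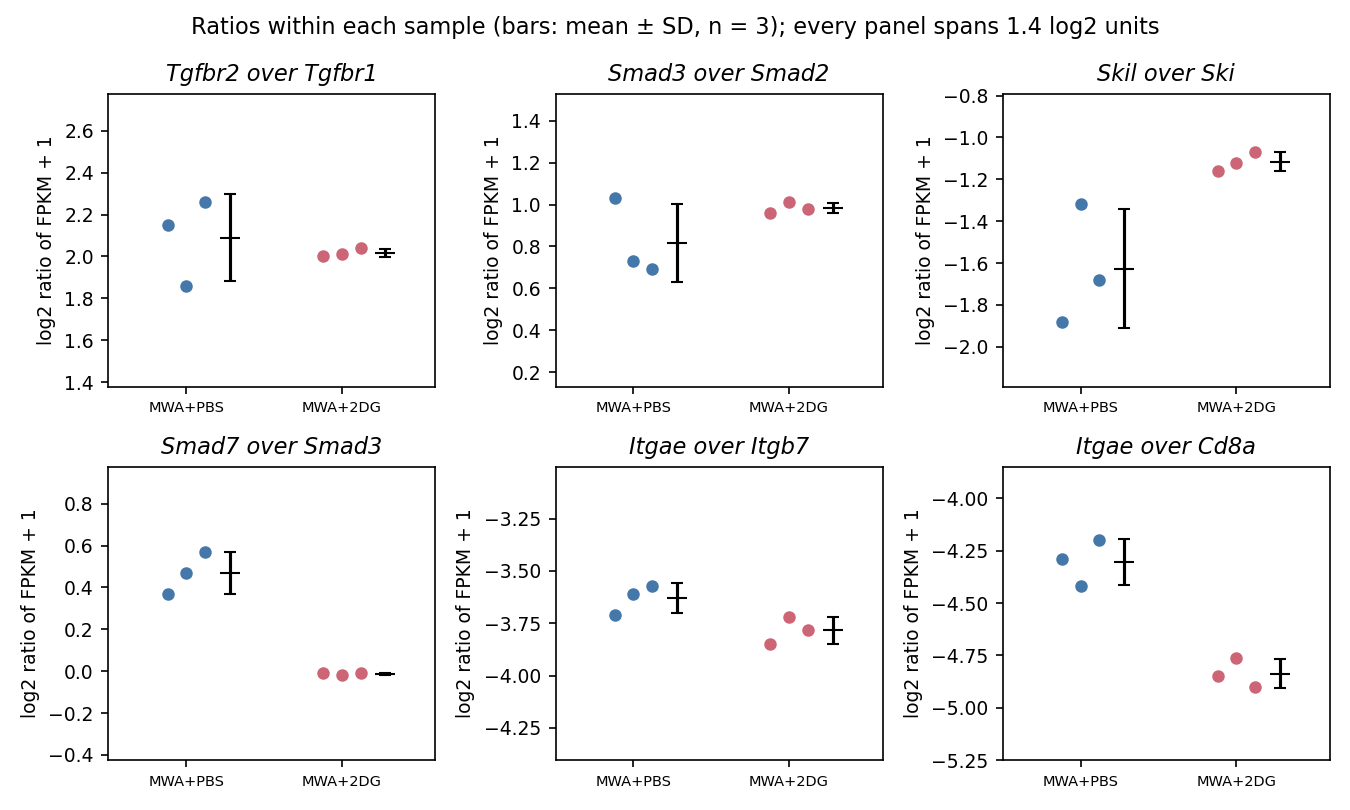
Log2 ratio of FPKM + 1 between a pair of genes within each sample (y axes, each spanning the same number of log2 units), with 1 point per sample and black bars for mean ± SD (n = 3). The groups are apart for Skil over Ski (above in MWA+2DG) and for Smad7 over Smad3, Itgae over Itgb7 and Itgae over Cd8a (below), and overlap for Tgfbr2 over Tgfbr1 and Smad3 over Smad2.

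The order of the levels differed little between the groups. In MWA+PBS the means were 34.47 FPKM for Tgfbr2, 29.21 for Ski, 18.52 for Smad7, 13.15 for Smad3, 10.78 for Itgae, 8.747 for Skil, 7.353 for Tgfbr1 and 6.987 for Smad2. Neighbours in that order were apart in all samples except for Skil and Tgfbr1 and for Tgfbr1 and Smad2, whose ranges overlapped. In MWA+2DG the means were 33.8 FPKM for Tgfbr2, 28.57 for Ski, 15.29 for Smad3, 15.16 for Smad7, 12.64 for Skil, 11.85 for Itgae, 7.62 for Tgfbr1 and 7.243 for Smad2. Here the ranges of Smad3 and Smad7, of Skil and Itgae, and of Tgfbr1 and Smad2 overlapped. Tgfbr2 was above 90.9% of all genes tested in MWA+PBS and above 90.6% in MWA+2DG, and Skil was above 59.9% and 70.8%.

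The rest of the pathway was read from 7 lists of 86 genes, of which 62 were tested and 24 were too low. Of the 62 genes, 20 were higher and 13 lower, or 53.2%, against 39.4% of all genes tested, and the median log2 fold change was 0.04 against 0.05. The balance of directions depended on the reference chosen: the higher share of the called genes was 60.6%, and 8.33% after scaling to T lineage genes, when 44 of 48 called genes were lower. It was 48.6% without a filter on low values and 48.6% with GC and length trends removed. The counts of each list that follow are to be read beside 22.3% higher and 17.1% lower among all genes tested, and those relative to T lineage genes beside 452 genes higher and 8736 lower of 12444. No set test was made.

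Among ligands and their activators, 4 of 13 genes were tested and 1 passed, as lower, and all 4 were lower relative to T lineage genes. Tgfb1, the main TGF-beta gene of immune cells, was 41.41, 29.42 and 43.94 FPKM in MWA+PBS and 23.43, 28.14 and 22.69 FPKM in MWA+2DG. The groups did not overlap, though MWA+PBS replicate 2 and MWA+2DG replicate 5 lay close together. Its log2 fold change was -0.59 (limma adjusted p = 0.0179), and the call was lost without MWA+PBS replicate 1 or 3 or MWA+2DG replicate 4 or 6 (limma adjusted p = 0.051 to 0.0598) and without the filter on low values (limma adjusted p = 0.0712). It fell together with the macrophage markers, Adgre1 at -2.53 and Csf1r at -2.57 among them, and their part in its change was not tested. Tgfb2 and Tgfb3, which encode the other ligands, were at most 0.17 and 0.19 FPKM, and the integrin chains Itgb6 and Itgb8, which help release the ligand, were at most 0.03 FPKM.

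Of the other receptors of the family, 2 of 5 genes tested of 9 were higher and 1 was lower, and 0 were higher and 2 lower relative to T lineage genes. The co-receptor Tgfbr3 (betaglycan), which presents ligand to TGFBR2, was higher, at 5.58, 5.13 and 5.84 FPKM against 6.8, 7.9 and 6.94 FPKM (log2 fold change 0.33, limma adjusted p = 0.0122). The activin receptor Acvr1b, a type I chain that also acts on SMAD2 and SMAD3, was higher too, at 7.94, 7.26 and 7.45 FPKM against 9.83, 10.45 and 9.55 FPKM (0.36, limma adjusted p = 0.00354). Relative to T lineage genes these were -0.11 and -0.08 and did not pass. Bmpr2, a receptor for bone morphogenetic proteins, was lower (-0.51, limma adjusted p = 0.00571), and with a pseudocount of 0.1 its value was -0.89.

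Of the other SMADs and their partners, 1 of 8 genes tested of 12 was higher and 3 were lower, and all 8 were lower relative to T lineage genes (median -0.61). Smad4, the common partner of the receptor-activated SMADs, was 28.35 ± 0.953 FPKM and 27.2 ± 0.638 FPKM (SD, n = 3) and did not pass (-0.06, limma adjusted p = 0.405, 95% interval -0.18 to 0.06), and relative to T lineage genes it was -0.5 and passed (limma adjusted p = 6.94e-05). Smad1, which serves the bone morphogenetic protein receptors, was lower (-0.31, limma adjusted p = 0.0103). Runx3, a factor needed for CD8 lineage and Itgae expression, was 49.58, 35.91 and 53.65 FPKM in MWA+PBS and 30.05, 36.11 and 28.94 FPKM in MWA+2DG. It passed (-0.52, limma adjusted p = 0.0291) although MWA+PBS replicate 2 and MWA+2DG replicate 5 overlapped. The acetyltransferase gene Ep300 was lower (-0.29, limma adjusted p = 0.0254), and the transcription factor gene Sp1 was higher (0.2, limma adjusted p = 0.0281). The calls of Runx3, Ep300 and Sp1 were each lost when 1 of 4 libraries was left out. For Runx3 and Ep300 these were MWA+PBS replicates 1 and 3 and MWA+2DG replicates 4 and 6, and for Sp1 they were MWA+PBS replicates 1 and 3 and MWA+2DG replicates 5 and 6, with limma adjusted p of 0.0645 to 0.0886. Without a filter on low values Runx3 and Ep300 did not pass either (limma adjusted p = 0.1 and 0.0659), and Sp1 did not pass with median ratio scaling (limma adjusted p = 0.0909) and was -0.24 and passed as lower relative to T lineage genes (limma adjusted p = 0.0152). Trim33, a SMAD partner, did not pass (0.13, limma adjusted p = 0.188), but it was -0.31 and passed as lower relative to T lineage genes (limma adjusted p = 0.00656).

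Of the negative regulators, 2 of 14 genes tested of 16 were higher and 1 was lower, and 0 were higher and 12 lower relative to T lineage genes (median -0.43). Smurf1, a ubiquitin ligase that SMAD7 brings to the receptor, was higher (0.32, limma adjusted p = 0.00902), and its relative Smurf2 did not pass (-0.03, limma adjusted p = 0.654, 95% interval -0.15 to 0.09). Smurf2 was -0.47 relative to T lineage genes and passed (limma adjusted p = 0.000326). Rnf111, which encodes the ubiquitin ligase arkadia that degrades SMAD7 and SKIL, was 0.2 (limma adjusted p = 0.0417), a call lost without any 1 of the 6 samples (limma adjusted p = 0.0586 to 0.146). With T lineage genes as the reference, Smurf1 was -0.12 and did not pass (limma adjusted p = 0.258), and Rnf111 was -0.24 and passed as lower (limma adjusted p = 0.00886). Tgif1, a co-repressor of SMAD2, was lower (-0.44, limma adjusted p = 0.004). The feedback genes Pmepa1 and Ldlrad4, whose products keep SMADs from the receptor, did not pass. Pmepa1 was 3.19, 2.47 and 3.3 FPKM against 3.78, 4.76 and 3.37 FPKM (0.31, limma adjusted p = 0.0889), and Ldlrad4 was -0.01 (limma adjusted p = 0.969, 95% interval -0.23 to 0.22). Ldlrad4 was -0.45 relative to T lineage genes and passed (limma adjusted p = 0.00758).

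In the arm of the pathway that runs through kinases instead of SMADs, 4 of 10 genes were higher and 3 lower, and 0 were higher and 8 lower relative to T lineage genes (median -0.4). Tab1, whose product activates the kinase TAK1, had the largest increase of this list (0.53, limma adjusted p = 0.0032), which was 0.09 and did not pass relative to T lineage genes. Downstream, Mapk14, which encodes the kinase p38alpha, was lower (-0.41, limma adjusted p = 0.000694), and so was Map2k3, which encodes a kinase that activates it (-0.41, limma adjusted p = 0.0114).

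Target genes were read last. Of the genes that TGF-beta induces, 4 of 10 tested of 14 were higher and 3 were lower, with log2 fold changes from -2.01 to 1.25. Against T lineage genes as the reference, 2 of the 10 were higher and 7 lower (median -0.42). Cxcr6, a chemokine receptor of tissue-resident T cells, was 10.92, 13.53 and 7.78 FPKM in MWA+PBS and 25.24, 26.65 and 27.02 FPKM in MWA+2DG (1.25, limma adjusted p = 0.000877). Rgs1, a regulator of G protein signalling found in resident T cells, was lower, at 5.6, 6.82 and 5.17 FPKM against 1.98, 2 and 2.56 FPKM (-1.11, limma adjusted p = 0.000283). Tgfbi, a matrix protein gene also expressed by macrophages, fell by 2.01 on the log2 scale (limma adjusted p = 3.83e-06), together with the macrophage markers, whose part in its change was not tested. Cdh1, which encodes E-cadherin, the ligand of CD103, was between 1.08 and 1.62 FPKM and did not pass (0.07, limma adjusted p = 0.674), but it was -0.37 and passed as lower relative to T lineage genes (limma adjusted p = 0.0337).

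Of the genes that TGF-beta represses in CD8+ T cells, 7 of 11 tested of 12 were higher and 1 was lower, with a median log2 fold change of 0.35, against 22.3% higher and 17.1% lower among all genes tested. Relative to T lineage genes, 2 of the 11 were higher and 3 lower, and the median was -0.09. Eomes, a transcription factor of memory and effector CD8+ T cells, was 23.08, 22.97 and 22.45 FPKM in MWA+PBS and 44.51, 44.63 and 47.81 FPKM in MWA+2DG (0.97, limma adjusted p = 1.06e-05). S1pr1, the receptor that lets T cells leave lymphoid tissue, was 74.58, 74.47 and 75.18 FPKM and 129.22, 132.23 and 132.02 FPKM (0.8, limma adjusted p = 1.4e-05). The death ligand gene Fasl was higher (0.56, limma adjusted p = 0.0226), a call lost without MWA+PBS replicate 1 or 2 or MWA+2DG replicate 4 or 6 (limma adjusted p = 0.0587 to 0.0758). It did not pass without the filter on low values (limma adjusted p = 0.0778) or once GC and length trends were removed (limma adjusted p = 0.0666), and relative to T lineage genes it was 0.12 (limma adjusted p = 0.493). Eomes and S1pr1 were still higher relative to T lineage genes, at 0.53 and 0.36.

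**Figure D4:**
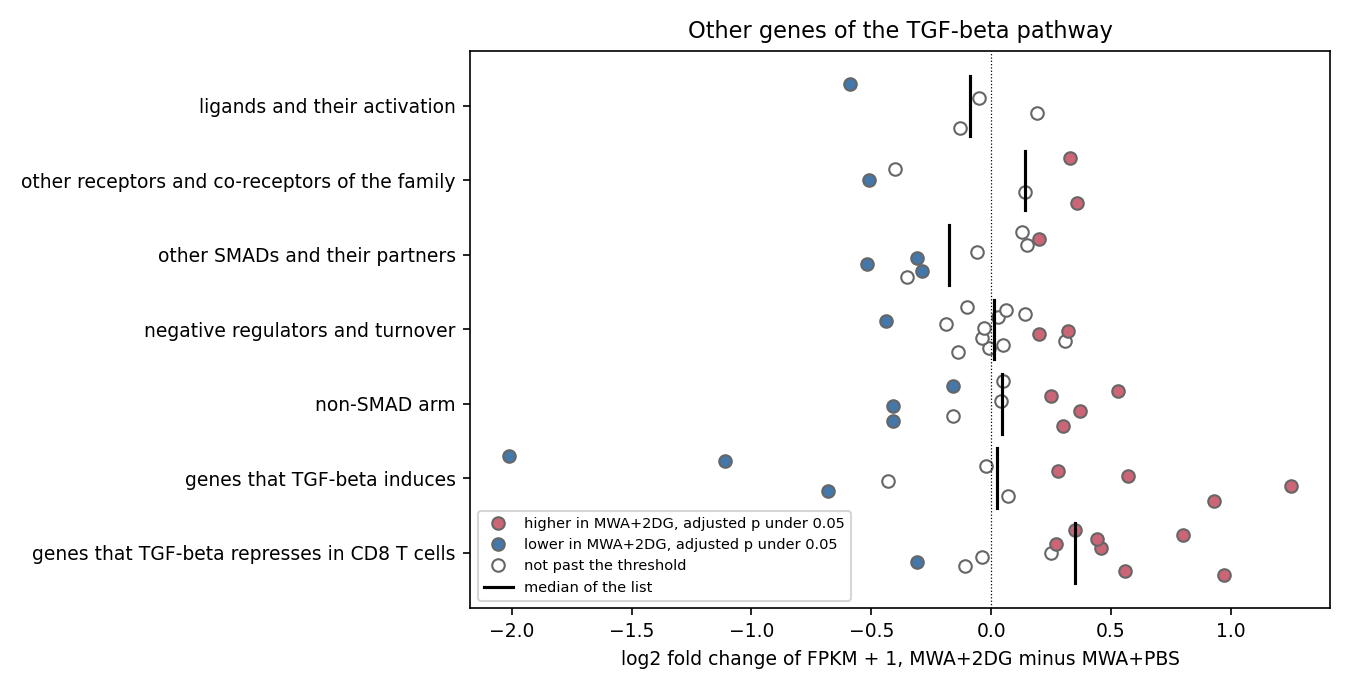
Log2 fold change of FPKM + 1 (x axis) of the 62 tested genes of 7 TGF-beta pathway lists (y axis), with 1 point per gene and a vertical bar at each list's median. Medians lie between -0.17 and 0.14 in 6 of the lists and at 0.35 for genes that TGF-beta represses in CD8 T cells, and the induced genes spread most, from -2.01 to 1.25.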

How the data were processed

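Reads had been quality-checked with fastp, mapped with HISAT2 and assembled with StringTie, per the study's methods. FPKM values were computed by the authors with StringTie and ballgown and deposited per sample. The submitters' processing notes name cutadapt 1.9, HISAT2 2.0.4, UMI-tools, StringTie 1.3.4d and mm9. Which annotation they used was not given in the sources used here. FPKM hold no read counts, so the sequencing depth is unknown and counting intervals could not be computed. Whether the samples were separate mice is not stated, so p-values measure the spread between these samples.

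Symbols were matched to 28689 of 28773 IDs with a table of gene names. In GENCODE M21, no exon of the 8 genes overlapped an exon of another gene. Groups came from the sample titles. Genes with a mean FPKM of at least 1 (12444) were fitted as log2(FPKM + 1), which understates the change of low genes, with limma 3.58.1 in R 4.3.3 (lmFit, eBayes with a trend, two-sided, no covariates). Intervals are limma's 95% intervals, unadjusted. On simulated data with 12444 genes and 200 changed, the fit recovered 96% of log2 changes of 1 and 51% of changes of 0.5, and called 0.0245% of unchanged genes. In the data 39.4% of genes passed, far more than the simulation changed, so these rates do not describe the fit of the data. Ratios were tested by exact permutation, two-sided.

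The 8 genes and all lists were chosen with earlier results of these data known. Named beyond the 8 were genes fixed by name, the 3 largest calls without overlap in each pathway list, defining cell markers and the 3 genes most similar to Itgae, Tgfbr2 and Smad3. Tgfb2, Tgfb3, Itgb6, Itgb8, Tnfrsf18, Cd4 and Irf8 were added after their values were seen. Alternatives were another pseudocount, filter, normalization or scaling, arrayWeights, eBayes with no trend and leaving out 1 sample at a time. Removal of GC and length trends was added after seeing the data.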

Additional observations from a re-analysis of the deposited data

How the results depend on the processing

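Scaling to T lineage genes lowered every log2 fold change by 0.44. Among the 8 genes it turned Tgfbr1 (-0.39), Smad2 (-0.39), Smad3 (-0.23) and Itgae (-0.31), which with Tgfbr2 (-0.47) and Ski (-0.46) then passed as lower, and it ended the call of Skil (0.05). Among the other genes it turned Tgfbr3 (-0.11), Itgb7 (-0.16), Cdh1 (-0.37), Pmepa1 (-0.13), Trim33 (-0.31), Acvr1b (-0.08), Sp1 (-0.24), Smurf1 (-0.12) and Rnf111 (-0.24). These follow from the construction of the scaling. With it 9188 genes passed the adjusted threshold, 4.92% of them higher against 56.5% of the 4907 called otherwise. With a mean FPKM of at least 5, 2951 of 7313 genes passed. The higher share was 49.2% without a filter, 48.6% with median ratio scaling and 47.3% with GC and length trends removed, which also turned Tgfbr1 (-0.05). Ldlrad4 was 0.02 with quantile normalization. Fits without 1 of the samples gave log2 fold changes of 0 to 0.12 for Tgfbr1, -0.07 to 0.01 for Tgfbr2, 0.14 to 0.31 for Smad3, -0.34 to -0.22 for Smad7, -0.13 to 0.04 for Ski, -0.02 to 0.15 for Cdh1 and -0.06 to 0.04 for Ldlrad4, 3706 to 5195 genes called, and a difference of -0.19 to 0.01 in the ratio of Tgfbr2 over Tgfbr1. Those fits also gave 0.02 to 0.08 for Smad2 and 0.2 to 0.4 for Pmepa1. Where no construction is named, the cause was not tested. The count of pathway genes called was between 24 and 48 over 16 alternatives, and the other 5 ratios kept their direction in the 7 alternatives run for each. No paired analysis was possible because no number is shared between the groups, which hold samples 1 to 3 and 4 to 6. The files hold no counts, so what depth adds to the spread is unknown.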

Other observations

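The genes whose pattern over the 6 samples was most like that of Itgae were Satb1, Kdm3b and Mon1b, with root mean square differences of 0.0117, 0.0168 and 0.0182 on log2(FPKM + 1) less each gene's mean. Satb1, which encodes a chromatin organizer of T cells, was 29.99, 28.63 and 31.53 FPKM in MWA+PBS and 31.65, 33.45 and 32.23 FPKM in MWA+2DG, so it was lowest and highest in the same samples as Itgae. For Tgfbr2 they were Coro7, Ttc7 and Hsdl1 (0.0124, 0.0138 and 0.0144), and for Smad3 they were Idua, Zkscan6 and Nudt18 (0.025, 0.0365 and 0.0409). These genes were the closest of 12444 tested over only 6 samples, and the likeness is a description.

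Haspin, a mitotic kinase gene, lies within Itgae on the opposite strand in GENCODE M21 and shares 0 exon bases with it. It was 4.77, 4.74 and 5.02 FPKM in MWA+PBS and 6.87, 7.64 and 6.67 FPKM in MWA+2DG (log2 fold change 0.46, limma adjusted p = 0.00167), and the log2 fold change of Itgae was 0.13. It was singled out after its values were seen.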
